A study of Mus musculus with 18 samples.

Results

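The 10 genes described here encode the G1 cell cycle machinery of mouse blood progenitors: the cyclin-dependent kinase (CDK) inhibitors Cdkn1b, Cdkn1c and Cdkn2c, the D cyclins Ccnd1, Ccnd2 and Ccnd3, cyclin E1 (Ccne1), the kinases Cdk4 and Cdk6, and the retinoblastoma gene Rb1. They were taken as a listed set by gene symbol, and all 10 were found among the 53458 genes of the series and passed the filter on low counts that left 21565 genes. The series holds 18 RNA-seq libraries of cells sorted from the bone marrow of C57BL/6 mice that were either Ptbp1 fl/fl, called WT here as in the sample titles, or Ptbp1 KO, with 3 biological replicates in each of 6 groups. Ptbp1 encodes an RNA-binding protein known as a regulator of splicing. The populations were haematopoietic stem cells (HSC), preMegE cells, which can form megakaryocytes and red cells, and preCFU-E cells, which are committed further towards red cells. HSC were taken as CD150-positive, CD48-negative cells among lineage-negative cells with Sca-1 and c-kit; preMegE and preCFU-E cells lacked Sca-1, CD41 and FcgRII/III and differed from each other in CD105, which marks preCFU-E. The labels say nothing of age, of how or when Ptbp1 was deleted, or of pooling between mice.

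In G1, D cyclins bind Cdk4 or Cdk6, and the active kinases phosphorylate the retinoblastoma protein. That releases E2F transcription factors, which turn on cyclin E and the genes of DNA replication. Inhibitors of the CIP/KIP family (Cdkn1b, coding for p27, and Cdkn1c, coding for p57) bind cyclin-kinase complexes, while Cdkn2c, of the INK4 family, binds Cdk4 and Cdk6 themselves. In the marrow, p57 and p27 are known for holding stem cells in quiescence, and Cdk6 for governing how fast stem cells leave it.

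Estimated reads per library ranged from 15956408 to 29226287, of which 12.7% to 33.6% fell on mitochondrial ribosomal RNA. Ptbp1 itself was lower in every KO library than in any WT library of its population, at 98.1 ± 8.83 against 208 ± 12.5 CPM (counts scaled to the library size; mean ± SD, n = 3) in HSC, 203 ± 25.4 against 693 ± 95.8 in preMegE and 306 ± 10.5 against 1244 ± 117 in preCFU-E. The sorted identities were checked on marker lists: summed HSC markers lay between 998 and 1412 CPM in HSC libraries and at or below 192 CPM elsewhere, and summed preCFU-E markers lay between 8891 and 11381 CPM in preCFU-E libraries and at or below 2354 CPM elsewhere. The preMegE list was highest in preMegE, at 1528 to 1841 CPM, but stood at 1058 to 1199 CPM in the other libraries. The HSC libraries carried the X-inactivation transcript Xist at 6434 to 8617 CPM and the Y-linked gene Eif2s3y at 0.212 to 1.05 CPM, while the 12 progenitor libraries carried Xist at 0.267 to 1.09 CPM and Eif2s3y at 38.3 to 85.2 CPM. In every step from HSC to preMegE given below, population and this difference in sex-linked transcripts therefore cannot be told apart. The same holds wherever the KO effect in a progenitor is set against that in HSC. Library 2 of HSC KO stood apart from the other 17 libraries on the third principal component, at -138.9 against -17.1 to 42.3.

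The first question the design asks is whether loss of Ptbp1 changed these genes within a population. None of the 10 passed the test in any population with edgeR's quasi-likelihood test and Benjamini-Hochberg adjustment over all genes tested, at an adjusted p threshold of 0.05. Of all genes tested, the share called was 0.844% for HSC, 0.0603% for preMegE and 0.153% for preCFU-E. An unadjusted p below 0.05 was found for 5 of the 10 in HSC (13.7% of all genes), for 1 in preMegE (4.92%) and for 2 in preCFU-E (3.68%). The median log2 fold change of the 10 was 0.01 for HSC, -0.13 for preMegE and 0.08 for preCFU-E, and over all genes it was 0.01, 0.01 and -0.00. Summed HSC markers were lower in HSC KO (998 to 1271 CPM) than in HSC WT (1362 to 1412 CPM), and in preMegE summed megakaryocyte markers stood at 48.3 to 87 CPM in KO and 98.4 to 123 CPM in WT. Also without overlap, summed preCFU-E markers stood at 296 to 414 CPM in HSC KO and 439 to 488 CPM in HSC WT. Most of that sum was Car2, at 345 CPM in HSC WT and 219 CPM in HSC KO on average. Tfrc (33.9 and 62 CPM) and Klf1 (0.858 and 1.02 CPM) went the other way, and the rest of the list had lower means in KO. Summed endothelial and stromal markers stood at 23.6 to 25.7 CPM in HSC KO and 26.8 to 61.3 CPM in HSC WT, though Kdr had a higher mean in KO. Summed HSC markers stood at 153 to 156 CPM in preMegE KO and 165 to 192 CPM in preMegE WT, and macrophage markers at 1.35 to 1.74 CPM in preCFU-E KO and 2.5 to 4.73 CPM in preCFU-E WT. The part of these in the values below was not tested. Since the libraries are of sorted bulk cells, fewer cells of a kind and less RNA per cell cannot be told apart in any of these values.

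**Figure D1:**
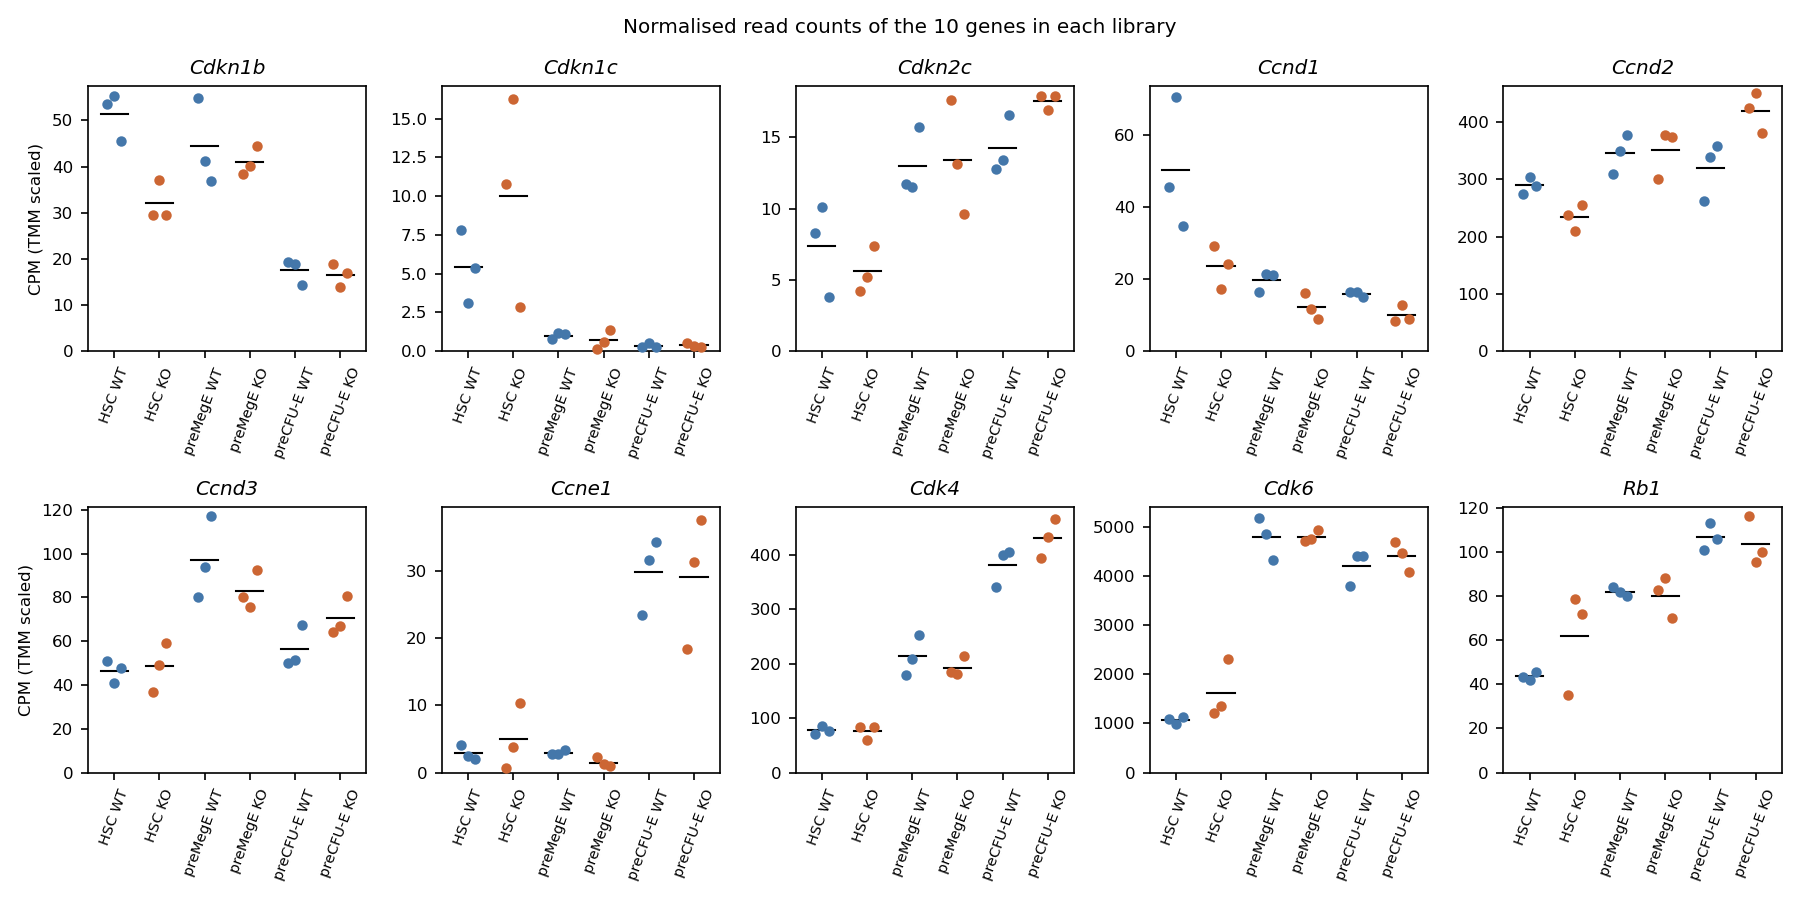
Normalised read counts (CPM, linear axis from 0) of the 10 genes; each point is 1 library, bars are group means, blue is WT and orange is KO, with 3 libraries in each of the 6 groups. Ccnd1 is lower in all KO libraries than in all WT libraries of the same population, and Cdk6 rises from about 1067 CPM in HSC WT to 4781 CPM in preMegE WT.

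Among the inhibitors, Cdkn1b was the one whose KO libraries separated from WT in HSC. It stood at 53.5, 55.4 and 45.5 CPM in HSC WT and at 29.4, 37.2 and 29.5 CPM in HSC KO. The groups did not overlap, as for 6.31% of all genes in the lower direction. The log2 fold change was -0.68 ± 0.18 (SE), with an adjusted p of 0.0729 by edgeR, so the call was missed. With DESeq2 the adjusted p was 0.018 and with limma voom it was 0.0449, and without HSC KO replicate 2 it was 0.0457 by edgeR. The other edgeR fits did not call it. Leaving out another HSC library gave 0.102 to 0.172, HSC libraries alone gave 0.714, and the remaining settings gave 0.0695 to 0.137. Outside HSC, Cdkn1b lay at 36.9 to 54.9 CPM in preMegE WT and 38.4 to 44.4 CPM in preMegE KO, and at 14.4 to 19.3 and 13.9 to 18.8 CPM in the corresponding preCFU-E groups. Its WT and KO libraries overlapped in both progenitors.

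Cdkn1c was scarce and uneven. HSC WT libraries held 7.84, 3.12 and 5.39 CPM and HSC KO libraries 10.8, 16.3 and 2.83 CPM, so the groups overlapped widely and the log2 fold change of 0.87 had a 95% confidence interval from -0.29 to 2.03. In preMegE and preCFU-E every library was at or below 1.36 CPM. Cdkn2c, with 3.83 to 10.1 CPM in HSC WT and 4.21 to 7.39 CPM in HSC KO, overlapped there too. In preCFU-E its KO libraries (16.9 to 17.9 CPM) lay above its WT libraries (12.8 to 16.6 CPM), as for 6.62% of all genes, with a log2 fold change of 0.30 whose 95% interval ran from -0.33 to 0.93. The interval of Cdkn1c in HSC includes both no change and a rise of 2-fold, so at this depth and spread such a rise could not be told from none.

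Ccnd1 was the D cyclin that was lower in KO libraries of every population. In HSC it stood at 45.6, 70.4 and 34.7 CPM in WT and at 29.2, 17.1 and 24.1 CPM in KO. In preMegE the values were 16.4, 21.4 and 21 CPM in WT and 16, 11.6 and 9 CPM in KO. In preCFU-E they were 16.5, 16.5 and 14.9 CPM in WT and 8.44, 12.8 and 8.92 CPM in KO. No KO library reached its WT group in any population (lower without overlap: 6.31%, 6.24% and 7.41% of all genes in the 3 populations), although the gap in preMegE was only that between 16 and 16.4 CPM. Non-overlap in the lower direction in all 3 populations was seen in 49 of 21565 genes (0.227%).

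The log2 fold changes of Ccnd1 were -1.10 ± 0.26 (SE) for HSC, -0.68 ± 0.27 for preMegE and -0.67 ± 0.27 for preCFU-E, with adjusted p of 0.0503, 0.93 and 1 by edgeR. Ccnd1 lies on the minus strand of chromosome 7, from 144929931 to 144939925 (GRCm38). The HSC value missed the threshold narrowly: it was called with DESeq2 (adjusted p = 0.00683), limma voom (0.0309), no filter on low counts (0.00808) and protein-coding transcripts only (0.0487), and without HSC WT replicate 3 (0.036) or HSC KO replicate 1 (0.0306). Its adjusted p was 0.198 without HSC WT replicate 2 and 0.632 with HSC libraries alone. In preCFU-E, Ccnd1 was called with libraries of that population alone (-0.69, adjusted p = 0.0384 by edgeR). The mean of the 3 KO effects was then tested in the same edgeR fit, a contrast added after these values were seen. It was -0.82 ± 0.15 (SE), a 1.76-fold lower level, with an adjusted p of 0.0105, and 116 genes in all (0.538%) were called, 0.301% of all genes in the lower direction; Ccnd1 was the only one of the 10. All 18 fits that each left out 1 library kept that call, with adjusted p from 0.00448 to 0.0389. The edgeR call was lost with length-scaled counts (adjusted p = 0.0943) and with a replicate block (0.0576). Ccnd1 shares 1100 exon bases with LTO1 on the opposite strand, and the counting is not stated to use strand. On average LTO1 stood at 8.97 CPM in HSC WT and 9.45 CPM in HSC KO. In WT and KO it stood at 14.6 and 15.2 CPM for preMegE and at 15.7 and 15 CPM for preCFU-E. Ccnd1 itself averaged 19.6 and 12.2 CPM, and 16 and 10 CPM, in those groups. The part of LTO1 reads in the Ccnd1 values was not tested.

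Ccnd2, the D cyclin with the highest CPM, differed from WT in opposite directions in HSC and preCFU-E, and neither difference was called. HSC WT libraries held 274, 305 and 289 CPM and HSC KO libraries 238, 209 and 256 CPM, so KO lay below WT without overlap, as for 6.31% of all genes in that direction. PreCFU-E WT libraries held 262, 339 and 359 CPM and preCFU-E KO libraries 425, 451 and 381 CPM, so KO lay above WT without overlap, as for 6.62% of all genes in that direction. The log2 fold changes were -0.30 ± 0.14 (SE) in HSC and 0.39 ± 0.14 in preCFU-E, with adjusted p of 0.322 and 0.897 by edgeR. With length-scaled counts the HSC value turned to 0.16. Their difference was 0.69 (95% interval 0.29 to 1.09), with an unadjusted p of 0.00167 and an adjusted p of 0.281, so it was not called, and with length-scaled counts it was 0.27. Ccnd3 overlapped between WT and KO in all 3 populations, with log2 fold changes between -0.23 and 0.33.

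Of the kinases, Cdk6 was higher in HSC KO. Its HSC WT libraries stood at 1095, 986 and 1120 CPM and its HSC KO libraries at 1202, 1355 and 2304 CPM. The groups did not overlap, as for 5.8% of all genes in that direction, but KO library 3 stood far above the other 2. The log2 fold change was 0.60 ± 0.17 (SE), with an adjusted p of 0.0866 by edgeR, and it was 0.26 without that library. DESeq2 called it (adjusted p = 0.0305), as did edgeR with no filter (0.0334), with protein-coding transcripts only (0.0387) and without HSC KO replicate 1 (0.0144) or 2 (0.0442). The adjusted p was 0.125 with limma voom. By edgeR it was 0.758 with HSC libraries alone and 0.234 without HSC KO replicate 3. In preMegE and preCFU-E, Cdk6 log2 fold changes were 0.00 (95% interval -0.34 to 0.35) and 0.07 (-0.27 to 0.41). Cdk4 lay within 71.5 to 85.6 CPM in HSC WT and 60.1 to 84.5 CPM in HSC KO, and its log2 fold changes over the 3 populations were between -0.15 and 0.18, with every 95% bound within -0.45 and 0.48.

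Ccne1, which partners Cdk2 at the entry into DNA synthesis, was low in HSC and preMegE, where WT libraries held 2.06 to 4.15 CPM and KO libraries 0.707 to 10.3 CPM. In preMegE its KO libraries (2.30, 1.24 and 0.922 CPM) lay below its WT libraries (2.75, 2.76 and 3.39 CPM), as for 6.24% of all genes, with a log2 fold change of -1.0 and a 95% interval from -2.31 to 0.30. In preCFU-E the WT values of 23.5, 31.6 and 34.3 CPM overlapped the KO values of 18.4, 31.4 and 37.6 CPM. Rb1, the pocket protein that the D cyclin kinases phosphorylate, stood at 43.4, 41.8 and 45.7 CPM in HSC WT and at 35.1, 78.6 and 71.6 CPM in HSC KO. Both high KO libraries exceeded WT and KO library 1 fell below it, so the log2 fold change of 0.50 ± 0.20 (SE) had an adjusted p of 0.256 by edgeR. Leaving out KO library 1 gave 0.79 with an adjusted p of 0.00609.

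Whether the KO effect differed between populations was tested directly with edgeR. The 3 tests called 0 members, with 2, 1 and 3 members at an unadjusted p below 0.05. Over all genes these tests called 7, 0 and 11 genes (0.0325%, 0% and 0.051%), and 8.15%, 2.62% and 7.92% had an unadjusted p below 0.05. Beyond Ccnd2, the members with such a p were Cdkn1b and Cdk6 for both progenitors against HSC, and Ccnd3 for preCFU-E against preMegE.

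**Figure D2:**
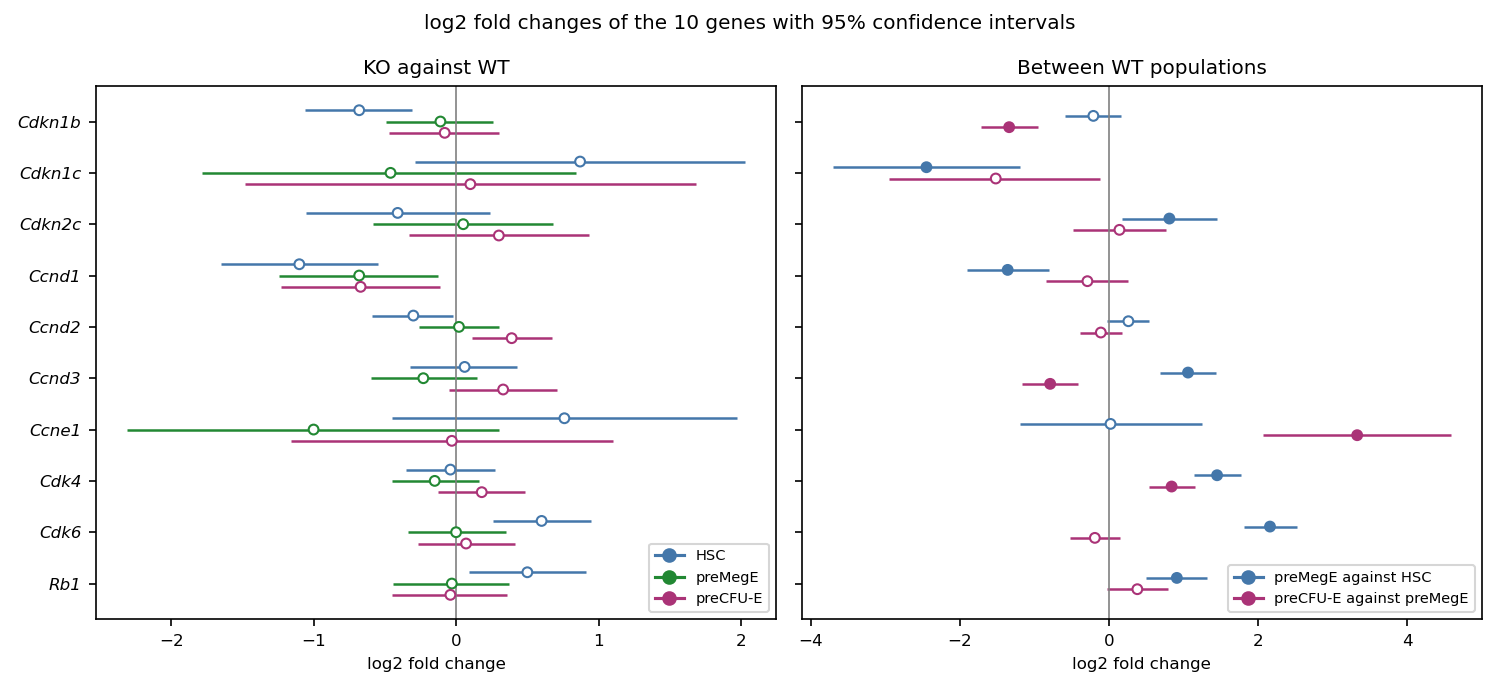
log2 fold changes (x axis) of the 10 genes with 95% confidence intervals from the edgeR fit on all 18 libraries; left, KO against WT in each population, right, steps between WT populations; filled points passed the adjusted p threshold of 0.05 and open points did not. All points on the left are open, and 7 and 4 points on the right are filled.

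The second question is how the same genes differ along the path from stem cell to red cell progenitor in WT cells. From HSC to preMegE, 7 of the 10 were called by edgeR, 5 higher and 2 lower, where 53.7% of all genes were called (25.5% higher and 28.2% lower). The median log2 fold change of the 10 was 0.53, beside -0.43 over all genes. From preMegE to preCFU-E, 4 of the 10 were called, 2 in each direction, where 26.8% of all genes were called (15.6% higher and 11.2% lower). The median was -0.15, beside -0.18. The preMegE WT libraries enter both steps, so the steps are not independent of each other.

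Both kinases of the D cyclins rose at the first step. Cdk6 went from 1067 ± 71.2 CPM (SD, n = 3) in HSC WT to 4781 ± 431 CPM in preMegE WT, a log2 fold change of 2.16 ± 0.17 (SE) with an adjusted p of 3.11e-09 by edgeR. It then stood at 4195 ± 350 CPM in preCFU-E WT, and that step was not called, except with protein-coding transcripts only (log2 fold change -0.42, adjusted p = 0.0427 by edgeR). By CPM, Cdk6 ranked between 3 and 5 among 21896 protein-coding genes in the 6 preMegE libraries. Of the reads per kilobase, 91.0% to 97.8% in the group means belonged to Cdk6-202, a model of 11525 bases whose last exon alone spans 10364 bases, and CPM does not correct for length. Cdk6 lies on the plus strand of chromosome 5, from 3341485 to 3531008 (GRCm38).

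Cdk4 rose at both steps. Its WT libraries held 71.5, 85.6 and 76.8 CPM in HSC. The preMegE libraries held 179, 208 and 252 CPM and the preCFU-E libraries 340, 399 and 405 CPM, and no group overlapped the next. The log2 fold changes were 1.45 ± 0.15 (SE) and 0.84 ± 0.15, with adjusted p of 1.39e-07 and 0.000174 by edgeR. The gene lies on the plus strand of chromosome 10, from 127063534 to 127067920 (GRCm38).

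The promoters of Cdk4 and Cdk6 are shown because both genes rose together at the first step. Each run is the 250 bases before the gene start from RefSeq on GRCm38.p6, with the E-box CACGTG in capitals. Both are given on the plus strand on which the genes lie, chr10:127063285-127063534 for Cdk4 and chr5:3343643-3343892 for Cdk6. The RefSeq start of Cdk6 lies inside the span given above, and its run ends just before exon 1 of Cdk6-202, at 3343893.
Cdk4: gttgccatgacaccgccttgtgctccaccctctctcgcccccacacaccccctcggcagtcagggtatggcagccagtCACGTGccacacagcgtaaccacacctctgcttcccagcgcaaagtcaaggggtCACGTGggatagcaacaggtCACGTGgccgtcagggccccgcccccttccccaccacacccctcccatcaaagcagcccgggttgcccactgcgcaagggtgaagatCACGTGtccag
Cdk6: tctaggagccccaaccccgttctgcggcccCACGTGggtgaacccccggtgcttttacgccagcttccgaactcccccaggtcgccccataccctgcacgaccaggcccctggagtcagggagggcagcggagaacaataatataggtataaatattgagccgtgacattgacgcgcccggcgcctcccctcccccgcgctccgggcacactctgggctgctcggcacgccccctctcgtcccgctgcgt
RefSeq windows were found for 6 of the 10 genes, 8 windows in all. The E-box, the word that MYC and related factors bind, reads the same on both strands and was searched after these sequences had been read. It occurred 4 times before Cdk4 and 1 time before Cdk6, in neither case overlapping itself, and in no other window of the 6 genes. Of 32851 promoters of the same length, 6.02% held it. The first search, for the E2F words TTTCGCGC, TTTGGCGC, TTTCCCGC and TTTGCCGC on both strands, found none in the 8 windows, where 1.86% of all promoters held one.

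The 3 D cyclins went different ways. Ccnd1 fell from HSC to preMegE by 1.36 on the log2 scale (SE 0.27, adjusted p = 0.000277 by edgeR), from 34.7 to 70.4 CPM to 16.4 to 21.4 CPM without overlap. Ccnd3 rose over the same step by 1.06 (SE 0.18, adjusted p = 7.06e-05), from 46.5 ± 5.17 CPM (SD, n = 3) to 97.0 ± 18.5 CPM, and fell again to 56.2 ± 9.62 CPM in preCFU-E (log2 fold change -0.79, adjusted p = 0.00218). Ccnd2 stood at 289 ± 15.5, 345 ± 34.2 and 320 ± 50.7 CPM in the 3 WT populations, and neither step was called, although the first was without preMegE WT replicate 1 (log2 fold change 0.38, adjusted p = 0.0403 by edgeR) and the second was with protein-coding transcripts only (-0.34, adjusted p = 0.0153). Ccnd3 shares 361 exon bases with Bysl on the opposite strand. Bysl itself went from 8.54 CPM in HSC WT to 36.1 and 97.5 CPM in preMegE and preCFU-E WT. The part of Bysl reads in the Ccnd3 values at either step was not tested.

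Cdkn1c and Cdkn1b each fell at 1 of the steps. Cdkn1c fell at the first step by 2.45 on the log2 scale (SE 0.61, adjusted p = 0.00217 by edgeR), from 3.12 to 7.84 CPM in HSC WT to 0.767 to 1.14 CPM in preMegE WT. The next step was -1.52, with an adjusted p of 0.107. Cdkn1b was not called at the first step (log2 fold change -0.21, 95% interval -0.59 to 0.16; -0.68 and called with protein-coding transcripts only) and fell at the second by 1.34 (SE 0.19, adjusted p = 1.19e-05), from 36.9 to 54.9 CPM to 14.4 to 19.3 CPM. Cdkn2c went the other way at the first step, from 8.26, 10.1 and 3.83 CPM to 11.7, 11.5 and 15.7 CPM, with a log2 fold change of 0.81 ± 0.31 (SE) and an adjusted p of 0.032. That call was lost without HSC WT replicate 3 (0.127), without preMegE WT replicate 3 (0.117) and with protein-coding transcripts only (0.387).

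Ccne1 had the largest log2 fold change of the 10 over the 2 WT steps. It stood at 2.75, 2.76 and 3.39 CPM in preMegE WT and at 23.5, 31.6 and 34.3 CPM in preCFU-E WT, a log2 fold change of 3.33 ± 0.60 (SE) with an adjusted p of 0.000352 by edgeR. With a replicate block it was 2.55, with an adjusted p of 0.102. From HSC to preMegE the change was 0.02, with a 95% interval from -1.20 to 1.25. Rb1 rose at the first step from 43.7 ± 1.97 to 81.9 ± 2.03 CPM (SD, n = 3), a log2 fold change of 0.91 ± 0.20 (SE) with an adjusted p of 0.000741. With protein-coding transcripts only that value was 0.44 and the adjusted p was 0.0912 by edgeR. Coding models held 97.7% of Rb1 reads in HSC WT and 98.5% in preMegE WT on average. Cdkn2c (0.81 to 0.33) and Cdkn1b (-0.21 to -0.68), with 100% of reads on coding models, moved down likewise in that setting. For Cdkn1b and Cdkn2c the counts are the same in both settings, and only the scaling to library size differs. That scaling applies to all genes, so log2 fold changes at this step depend on it. Which scaling is nearer to the RNA content of the cells was not tested. The second step to 107 ± 5.83 CPM was not called (adjusted p = 0.169).

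The same steps between the KO groups, also added after the data were seen, called 8 of the 10 from HSC to preMegE (52.7% of all genes, 25.4% higher and 27.3% lower) and 3 of the 10 from preMegE to preCFU-E (36.1% of all genes, 18.4% higher and 17.6% lower). At the first KO step Cdk6 (log2 fold change 1.57), Cdk4 (1.34), Cdkn2c (1.26), Ccnd3 (0.77) and Ccnd2 (0.58) were higher, and Cdkn1c (-3.78), Ccne1 (-1.73) and Ccnd1 (-0.94) were lower. At the second, Ccne1 (4.30) and Cdk4 (1.16) were higher and Cdkn1b (-1.31) was lower. The call of Ccne1 at the first KO step (adjusted p = 0.0253 by edgeR) was lost with limma voom (0.255), with no filter (0.102), and with length-scaled counts (0.17). The replicate block also ended it (0.644). It was lost without HSC KO replicate 2 (0.0553) or 3 (0.36) and without preMegE KO replicate 2 (0.078) or 3 (0.112). The first KO step of Ccnd2 was not called with length-scaled counts (log2 fold change 0.10, adjusted p = 0.717 by edgeR), protein-coding transcripts only (0.17, adjusted p = 0.183) or the replicate block (0.42, adjusted p = 0.106). That of Ccnd1 was not called with the replicate block (adjusted p = 0.0858). Whether a KO step differs from the WT step is the same test as the difference of the KO effects given above, in which no member was called.

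To compare genes with each other, reads were divided by effective transcript length. On that scale (reads per kilobase, scaled to the library size) the 2 kinases together rose from 183 ± 4.49 in HSC WT to 707 ± 6.22 in preMegE WT and 856 ± 68.3 in preCFU-E WT, while the 3 D cyclins together stood at 126 ± 16.4, 143 ± 22.7 and 100 ± 15.1 (SD, n = 3). Cdk6 made up 52.2% ± 1.82 of the 2 kinases in HSC WT, 61.8% ± 4.81 in preMegE WT and 43.2% ± 0.23 in preCFU-E WT. The preCFU-E WT range of 43.0% to 43.5% lay below both other WT ranges. In HSC KO the Cdk6 share was 54.2%, 68.5% and 66.3%, above all HSC WT libraries (50.2% to 53.8%). The Cdk4 part counts the retained-intron model Cdk4-209. In HSC WT it held 30.4%, 29.5% and 36.6% of Cdk4 reads per kilobase, from 115, 100 and 117 reads. In HSC KO it held 35.1%, 0% and 40.6%, so the Cdk6 share of 68.5% is that of the library without it. With protein-coding transcripts only, HSC KO and HSC WT overlapped, as given below. Shares between genes carry no test.

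Among the D cyclins, Ccnd2 held 55.5% ± 5.58 in HSC WT, 45.8% ± 1.57 in preMegE WT and 55.0% ± 2.72 in preCFU-E WT. Ccnd3 held 32.7% ± 7.2, 49.6% ± 1.45 and 39.9% ± 2.73, and Ccnd1 11.8% ± 2.9, 4.70% ± 0.591 and 5.07% ± 1.2. Ccnd1 shares in KO were 7.03% ± 3.43, 2.85% ± 0.783 and 2.35% ± 0.407 in the same order of populations. They overlapped WT in HSC and lay below it in both progenitors. The Ccnd2 share in HSC counts Ccnd2-203, a model of 127 bases whose effective length is short. In HSC KO it took 26.1% ± 28.7 of the gene's reads per kilobase from at most 41 reads in a library.

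**Figure D3:**
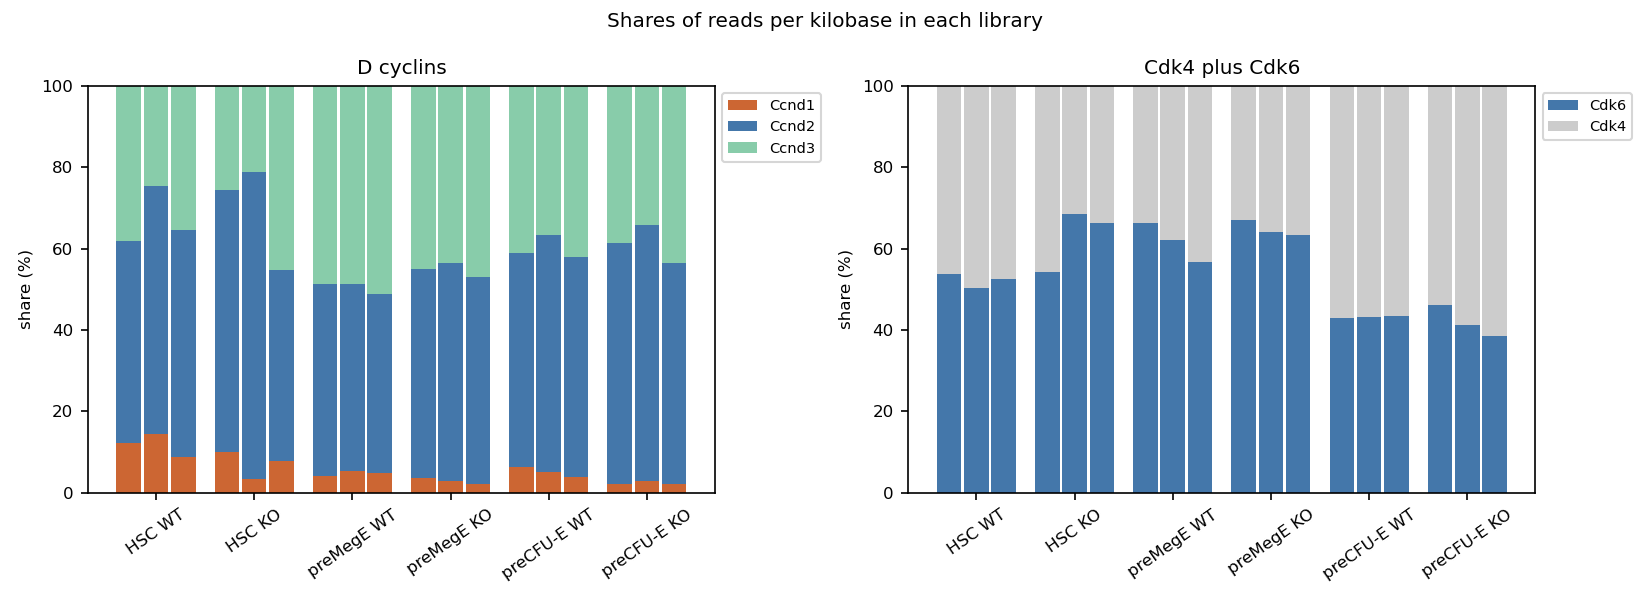
Shares (percent, y axis from 0 to 100) of reads per kilobase among Ccnd1, Ccnd2 and Ccnd3 (left) and among Cdk4 and Cdk6 (right); each bar is 1 library, with 3 bars for each of the 6 groups. Cdk6 holds 43.0% to 43.5% of the kinase pair in preCFU-E WT and 56.8% to 66.4% in preMegE WT.

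Because Ptbp1 acts on splicing, transcript usage within each gene was tested with edgeR's diffSpliceDGE on the estimated reads of each annotated model. Of the 9 members with at least 2 testable models (all but Cdk6), none was called between KO and WT in any population. Over all genes 384 of 11599 were called for HSC (3.31%), 16 for preMegE (0.138%) and 24 for preCFU-E (0.207%). Without adjustment, Ccnd1 in HSC and Ccne1 in preMegE were below 0.05, with adjusted p of 0.368 and 0.843 by edgeR, and no member was in preCFU-E. Of all genes, 12.2%, 4.03% and 3.12% were below it in the 3 populations. For Ccnd1 the retained-intron model Ccnd1-203 held 5.35% ± 4.46 of the gene in HSC WT and 12.8% ± 9.51 in HSC KO, and 3.63% ± 2.03 and 15.5% ± 6.45 in preMegE (SD, n = 3). These rest on 2.17 to 60 reads in a library. The same test between WT populations was added after the data were seen and called no member. Of all genes it called 7.45% from HSC to preMegE and 0.0948% from preMegE to preCFU-E.

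Among the members Cdk4 had the lowest adjusted p, 0.0614 by edgeR, from WT HSC to WT preMegE. Its coding model Cdk4-205, in which exon 2 begins 18 bases earlier than in Cdk4-201, held 2.65% ± 4.27 of the gene in HSC WT and 36.2% ± 1.55 in preMegE WT. The read estimates were 4.68, 87.4 and 0 in HSC WT and 1351, 1753 and 1598 in preMegE WT. Cdk4-208, annotated as a target of nonsense-mediated decay, went from 4.05% ± 7.01 to 22.5% ± 1.07. Both models end early. Cdk4-205 stops within exon 7 of Cdk4-201 and lacks its last exon of 992 bases, of which Cdk4-208 holds 74 bases. Whether read coverage along the gene shaped these shares was not tested. The retained-intron model Cdk4-207 went from 15.5% ± 3.12 to 2.41% ± 0.331 and the coding model Cdk4-204 from 13.5% ± 3.31 to 1.49% ± 0.568. In KO libraries Cdk4-205 held 0% to 1.96% in HSC KO, 27.8% to 35.5% in preMegE KO and 39.1% to 41.7% in preCFU-E KO.

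For the transcript Cdk4-205 itself the log2 difference in usage was 3.25 (adjusted p = 0.0498 by edgeR), and the gene was called without HSC WT replicate 2 (adjusted p = 0.000183) or 3 (2.47e-05). Between HSC KO and HSC WT, Cdk4 was called without HSC WT replicate 3 (0.00231) or HSC KO replicate 1 (0.0408) by edgeR. Cdk4-205 had 28.8, 0 and 0 estimated reads in HSC KO. Cdk4-208 lacks the third exon of Cdk4-201. That exon of 136 bases is shown with the 131 bases of the intron before it, which Cdk4-203 retains, at chr10:127064454-127064720 on the plus strand of GRCm38. The intron is in lower case and the exon in capitals.
Cdk4 intron and exon: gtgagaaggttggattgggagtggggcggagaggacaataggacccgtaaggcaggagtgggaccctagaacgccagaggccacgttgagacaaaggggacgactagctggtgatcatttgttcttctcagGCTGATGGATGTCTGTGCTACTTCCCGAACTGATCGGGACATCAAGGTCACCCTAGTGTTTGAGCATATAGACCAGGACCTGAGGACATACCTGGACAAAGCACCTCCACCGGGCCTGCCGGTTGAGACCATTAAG
The exon itself begins at position 127064585. Salmon shares reads among overlapping models by likelihood, so these shares are estimates for whole models and no junction was counted directly.

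**Figure D4:**
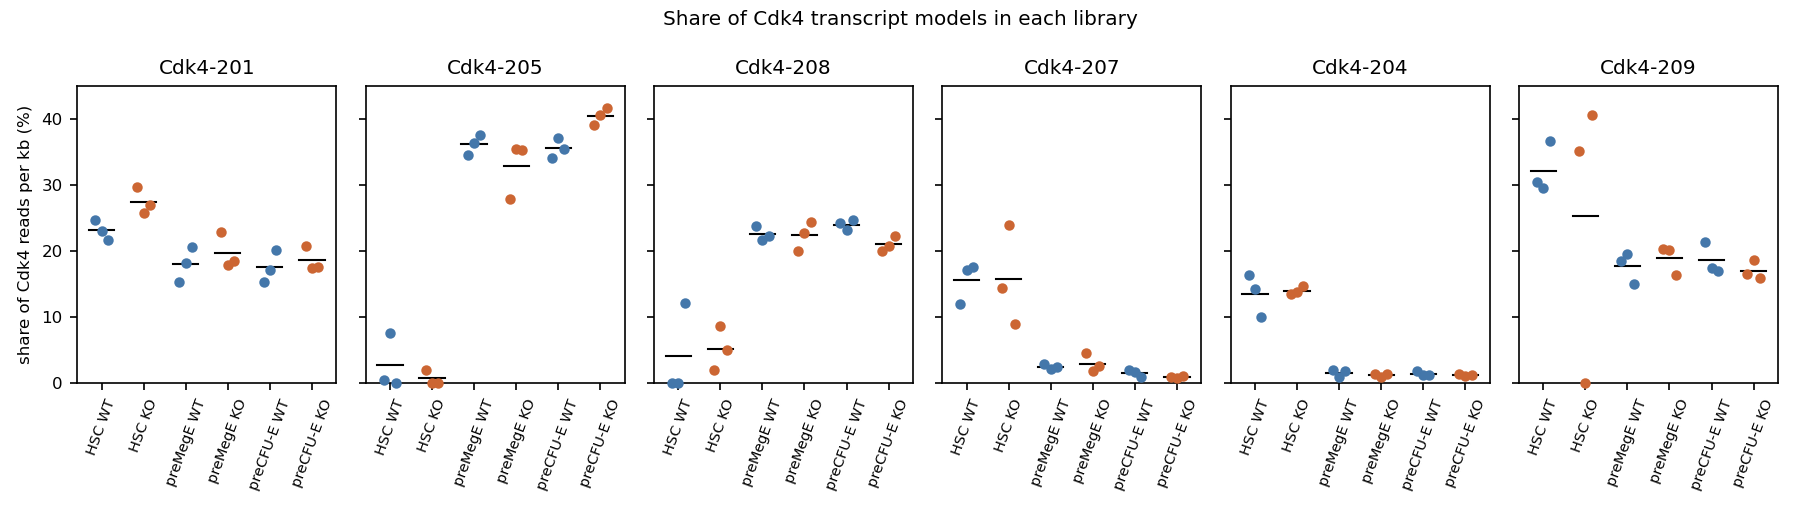
Share (percent) of Cdk4 reads per kilobase held by 6 annotated Cdk4 models; each point is 1 library, bars are group means, blue is WT and orange is KO, with 3 libraries in each of the 6 groups. Cdk4-205 and Cdk4-208 lie at or below 12.1% in the 6 HSC libraries and at or above 19.9% in the 12 progenitor libraries, and Cdk4-207 and Cdk4-204 run the other way.

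The other genes of the pathway were described by 6 lists of 73 genes. Between KO and WT, 1 gene of all lists was called in any single population: Cdc25a, the phosphatase that activates Cdk2, was lower in HSC KO (24.9 ± 2.17 CPM in WT and 11.8 ± 3.46 CPM in KO, log2 fold change -1.08 ± 0.18 SE, adjusted p = 0.00711 by edgeR). The 18 E2F target genes had 0 called in each population, with a median log2 fold change of -0.11 for HSC, -0.36 for preMegE and 0.05 for preCFU-E. In preMegE all 18 had a negative value, where the median over all genes was 0.01, and 6 had an unadjusted p below 0.05, as did 4.92% of all genes. Over the averaged KO effect, 1 of the 18 was called, Tyms (log2 fold change -0.69 ± 0.12 SE, adjusted p = 0.00665 by edgeR), which makes thymidylate.

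Along the WT steps the counts of the lists stand beside 25.5% of all genes higher and 28.2% lower at the first step, and 15.6% higher and 11.2% lower at the second. Of the E2F targets, 16 of 18 were higher in preMegE than in HSC and 13 of 18 higher in preCFU-E than in preMegE, with none lower. The first step was led by the replication licensing genes Mcm2 (log2 fold change 2.21), Mcm5 (2.02) and Mcm6 (1.96), and the second by Rrm2 (1.33), Cdc6 (1.31) and Orc1 (1.30). Of 8 other G1 and S cyclins and kinases, 5 rose at each step and none fell, led at both by Ccna2, cyclin A2, from 78.4 ± 6.08 to 147 ± 17.2 and 443 ± 82.3 CPM (SD, n = 3). Of 18 pocket protein, E2F, DP and MuvB genes, 10 rose at the first step (E2f8, Lin37 and Mybl2 most) and 6 at the second (E2f4, Mybl2 and E2f6 most). Of 12 genes for turnover of cyclins and inhibitors, 8 rose at the first step, led by Fzr1, Ddb1 and Cks1b, and 4 at the second, led by Cul4a, Cks1b and Ddb1.

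Of the 4 other CDK inhibitors, 2 passed the filter. Cdkn1a, coding for p21, rose from 2.91 ± 1.94 to 10.8 ± 1.87 CPM and fell to 1.90 ± 0.252 CPM, both steps called (adjusted p = 0.00184 and 0.000382 by edgeR). Cdkn2d, of the INK4 family like Cdkn2c, fell from 10.5 ± 1.3 to 3.21 ± 0.695 CPM at the second step (adjusted p = 0.00029). Of 13 upstream transcription factors, 8 rose and 3 fell at the first step, and 2 rose and 3 fell at the second. Klf1, an erythroid factor, rose at both, from 0.858 to 64.5 and 183 CPM. Mycn fell from 49.7 ± 3.27 CPM in preMegE WT to 0.382 ± 0.224 CPM in preCFU-E WT, and Gfi1, at 2.53 ± 2.13 CPM in HSC WT, had no reads in preMegE WT (adjusted p = 0.000308).

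The protein-coding genes whose log2 CPM ran most like each member over the 18 libraries were named by Pearson's r, which here mostly follows the difference between the 3 populations that all genes share. For Cdk4 they were Eif3i (r = 0.997) and Atp5b (0.996), and for Cdk6 Slc45a3 (0.991) and Dock10 (0.979). For Cdkn1b Pcmtd1 (0.978) is given, for Rb1 Myg1 (0.97) and Ndufs4 (0.956), and for Cdkn1c Gm3636 (0.954) and Inha (0.952). For Cdkn2c they were Ciao2b (0.945) and Ranbp9 (0.932), and for Ccne1 Dna2 (0.934) and Pdss1 (0.932). The D cyclins had lower values: Ccnd1 with Pde1b (0.915) and Olfr1219 (0.903), Ccnd3 with Rtn4rl1 (0.913) and Furin (0.911), and Ccnd2 with Cdc42se2 (0.895) and Klhl9 (0.885).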

How the data were processed

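RNA-seq of 18 libraries was quantified by the authors against transcripts with Salmon 0.12.0, per the submitters' processing notes, which also name GRCm38.p6 and mm10. The deposited tables give estimated counts and TPM per transcript, with effective lengths; the settings, strand use and filters of that step are not stated. TPM values as deposited entered no test. Of 136288 transcripts, 136176 were matched to genes with the GENCODE M21 table. Estimated counts were summed per gene, rounded to whole numbers, filtered with filterByExpr and tested with edgeR 4.0.16 (TMM factors, robust quasi-likelihood, 12 residual degrees of freedom, R 4.3.3) in a fit on all 6 groups, with Benjamini-Hochberg adjustment over all genes tested and calls below 0.05. CPM are scaled by the TMM library sizes. Transcript usage used diffSpliceDGE on models with at least 5% of a gene. The tests of KO against WT in each population, of each WT step, and of transcript usage between KO and WT in preCFU-E were also run on simulated counts. The other contrasts were not.

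Alternatives were RLE size factors, DESeq2 1.42.0, limma 3.58.1 voom, no filter, length-scaled counts, protein-coding transcripts only, a replicate block, single-population fits, and leaving out each library. Genes named from a list are the 3 called genes with the largest change, and 2 genes are named as most alike for each member, except that 1 gene is not reported here. The members, lists and tests were chosen with earlier results of these data known. Replicates are labelled biological, without saying which mice they came from, so p-values measure the spread between these samples. The fit on all 6 groups shares that spread across populations. Estimated by population, the common coefficient of variation between libraries was largest for HSC (0.506) and smallest for preCFU-E (0.135), with preMegE at 0.266. A p-value of the shared fit can therefore be too small for HSC and too large for preCFU-E. Depth is given with the report; estimated counts carry counting and assignment error that no interval here separates.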

Additional observations from a re-analysis of the deposited data

Results flagged for a closer look

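Ccnd2 was picked out because its KO libraries moved in opposite directions in HSC and preCFU-E. All 3 HSC KO libraries (209 to 256 CPM) lay below all 3 HSC WT libraries (274 to 305 CPM), and all 3 preCFU-E KO libraries (381 to 451 CPM) lay above all 3 preCFU-E WT libraries (262 to 359 CPM). Such separation was seen in 6.31% of all genes for lower values in HSC and in 6.62% for higher values in preCFU-E. The KO effect in preCFU-E minus that in HSC was 0.69 ± 0.19 (SE) on the log2 scale, with an unadjusted p of 0.00167 and an adjusted p of 0.281 by edgeR, so the difference did not pass the threshold over all genes. Leaving out 1 library at a time gave 0.59 to 0.76, and the other settings gave 0.27 to 0.72. The lowest came with length-scaled counts, where the HSC effect turned to 0.16 and the directions were no longer opposite.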

How the results depend on the processing

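The number of the 10 genes called between HSC KO and HSC WT was 0 in the fit reported. It was 3 with DESeq2, 2 with limma voom, 2 with no filter on low counts and 2 with protein-coding transcripts only. With each library left out it was 0 to 3. Over all genes 182 were called in the fit reported, 5 to 647 over the other settings and 89 to 595 with 1 library left out. In preCFU-E the number of the 10 called was 1 with libraries of that population alone. Over the other settings 15 to 252 of all genes were called there, and 33 in the fit reported. For the averaged KO effect the count of the 10 went from 1 to 0 with length-scaled counts and to 0 with the replicate block. Of all genes, 116 were called for it in the fit reported and 61 to 373 over the other settings. In transcript usage, leaving out 1 library gave 0 to 1 members for HSC KO against WT and 0 to 1 for WT preMegE against WT HSC. Over all genes those fits called 330 to 483 and 521 to 846. The cause of these changes was not tested.

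Deviations of same-numbered replicates had correlations from -0.0381 to 0.143, and those of differently numbered ones from -0.123 to 0.0751. In preMegE the same-numbered values were all above 0, at 0.143, 0.0125 and 0.0857. The labels do not call the numbers pairs, and they were not taken as pairs. With the replicate block, the WT steps called 6 and 3 members, the calls of Cdkn2c (adjusted p = 0.127 by edgeR) and Ccne1 (0.102) were lost, the averaged Ccnd1 effect had an adjusted p of 0.0576, and Cdkn2c from WT preMegE to preCFU-E was -0.09. Over all genes the block called 94 genes between HSC KO and WT, 5460 and 2928 along the WT steps.

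Values that changed sign, none of them called, were as follows. With length-scaled counts, KO effects were 0.16 for Ccnd2 and -0.15 for Ccnd3 in HSC, -0.01 for Cdkn2c and 0.51 for Ccne1 in preMegE, and 0.02 for Cdkn1b and 0.03 for Rb1 in preCFU-E, and the step from WT HSC to preMegE was 0.14 for Cdkn1b and -0.57 for Ccne1. With protein-coding transcripts only, KO effects were 0.13 for Cdk4 in HSC, 0.02 for Rb1 in preMegE and -0.02 for Cdkn1c in preCFU-E, and steps were -0.19 for Ccnd2 and -0.31 for Ccne1 (HSC to preMegE) and -0.10 for Cdkn2c (preMegE to preCFU-E). Ccne1 at the first step was -0.04 with RLE size factors and -0.03 with DESeq2, and Cdk6 in preMegE was -0.01 with no filter. Leaving out 1 library gave KO effects in HSC of -0.11 to 0.22 for Ccnd3, -0.39 to 1.28 for Ccne1 and -0.12 to 0.10 for Cdk4. In preMegE they were -0.24 to 0.02 for Cdkn1b, -0.20 to 0.24 for Cdkn2c, -0.09 to 0.12 for Ccnd2, -0.08 to 0.02 for Cdk6 and -0.14 to 0.05 for Rb1. In preCFU-E they were -0.23 to 0.02 for Cdkn1b, -0.14 to 0.48 for Cdkn1c, -0.26 to 0.21 for Ccne1 and -0.14 to 0.01 for Rb1. The first WT step of Ccne1 was -0.13 to 0.42.

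Shares depend on length correction and on the models summed. With no length correction, Ccnd2 held 75%, 74.9%, 78.6%, 81.5% and 83.8% of the D cyclins in HSC WT, preMegE WT, preMegE KO, preCFU-E WT and preCFU-E KO. Ccnd3 held 12.1%, 15.8%, 20.9%, 18.6%, 14.4% and 14.2%, and Cdk6 held 93.2%, 95.2%, 95.7%, 96.1%, 91.7% and 91% of the kinase pair, in WT and then KO of HSC, preMegE and preCFU-E. With protein-coding transcripts only, Cdk6 held 73.5%, 79.8%, 73.8%, 76.5%, 58.3% and 54.4% in the same order, Ccnd1 15.9% in HSC WT, Ccnd2 50.4% in preMegE KO and Ccnd3 51% in preMegE WT. The Cdk6 share was lower in HSC WT than in preMegE WT per kilobase over all models and with no length correction. With protein-coding transcripts only, the 2 groups overlapped, at 69.2% to 77.7% and 68.2% to 79%. HSC KO, at 72.3% to 84.6%, also overlapped HSC WT in that setting.

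Counts over all genes ranged widely: 5 to 647 for HSC KO against WT (182 reported), 4 to 59 for preMegE (13), 14 to 252 for preCFU-E (33), 5460 to 12105 and 2928 to 6427 for the WT steps (11571 and 5779), 61 to 373 for the averaged effect (116), and 22 to 483 for transcript usage in HSC (384). For the differences between KO effects they were 2 to 131, 0 to 10 and 4 to 122 (7, 0 and 11). Low counts limit Cdkn1c and Ccne1 most, with 3 to 31 and 19 to 75 reads in a preMegE library.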

Other observations

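The retained-intron model Cdk6-206, at chr5:3470949-3473180 (GRCm38), was singled out after its values were seen and has no test. It had 494, 602 and 503 estimated reads in preMegE WT and 841, 753 and 1129 in preMegE KO, and at most 67.2 in any library of the other groups. Its share of Cdk6 reads per kilobase was 2.37% ± 0.392 (SD, n = 3) in preMegE WT and 5.06% ± 0.136 in preMegE KO, without overlap. Gm17590, which shares 368 exon bases with Cdk6 on the opposite strand, stood at 34.1 CPM in preMegE WT and 76.4 CPM in preMegE KO on average.

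In HSC, retained-intron models held 40.6% ± 2.51 of Cdk4 reads in WT and 36.9% ± 9.85 in KO, where the progenitor groups lay between 6.27% and 11.7%. Ccnd3 showed 31.6% ± 5.03 in HSC WT and 25.1% ± 15.2 in HSC KO, with 2.43% to 6.91% in the progenitor groups.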
